A study of Mus musculus with 24 samples.

Results

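Alarmins are cytokines that barrier tissue releases or secretes on damage or on contact with parasites and microbes, and IL-25, IL-33 and TSLP are the ones that act on group 2 innate lymphoid cells (ILC2) and other type 2 immune cells. IL-25 is known as a product of tuft cells in the intestinal epithelium and is read by a receptor of IL-17RB and IL-17RA. IL-33 is a nuclear cytokine of stromal, endothelial and epithelial cells and is read by ST2, the product of Il1rl1, with its partner chain IL-1RAP, and TSLP is read by the receptor chain encoded by Crlf2 together with the IL-7 receptor chain IL-7Rα. The 9 genes described here are the 3 ligand genes Il25, Il33 and Tslp and the 6 receptor genes Il17rb, Il17ra, Il1rl1, Il1rap, Crlf2 and Il7r. They were chosen by name, and all 9 were found among the 39056 genes of the count table.

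The RNA came from live CD45+ cells, of hematopoietic origin, and from live CD45- cells, a mixture of epithelium, endothelium and stroma, sorted from the ileum of C57BL/6 mice without Peyer's patches. The 4 genotypes combined Hoil1+/+ or Hoil1-/- with either Il4raflox/flox or Il4raflox/flox+Vil1cre, so that all mice carried floxed Il4ra. Mice without the Cre are called f/f, and mice with it are called ΔIEC, because the Vil1 promoter drives the Cre in intestinal epithelial cells (IECs) and Il4ra, which encodes a receptor chain for IL-4 and IL-13, is deleted there. Hoil1-/- mice lack HOIL1, a subunit of the linear ubiquitin chain assembly complex (LUBAC), but still make its N-terminal domain at a low level. There were 3 libraries for each genotype and fraction, 24 in all, from mice 9 to 10.3 weeks old. The study left out 3 Hoil1-/- libraries as outliers of a principal component analysis, namely CD45+ f/f replicate 1, CD45+ ΔIEC replicate 3 and CD45- f/f replicate 3. Tests here used the remaining 21, and values are given for all 24.

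Levels are given as CPM, the counts of a gene for each M (mega) counts on genes in its library. The libraries held from 14.9 to 76.8 M counts in CD45+ and from 6.03 to 68.3 M in CD45- cells, so that 3 counts, the least treated as a signal, were 0.0391 to 0.201 CPM in CD45+ and 0.0439 to 0.498 CPM in CD45- libraries. Rbck1, the gene for HOIL1, was at 54.0 to 169 CPM in Hoil1+/+ and 3.67 to 15.5 CPM in Hoil1-/- CD45+ libraries, and at 70.9 to 131 CPM and 0 to 8.71 CPM in CD45- libraries. Il4ra, no member of the set, was at 61.2 to 187 CPM in the f/f and 42.0 to 158 CPM in the ΔIEC CD45- libraries, and the CD45- fraction also holds cells in which the Cre is not active. Ptprc, which encodes CD45, averaged 546 CPM in CD45+ and 3.48 CPM in CD45- libraries, and Epcam, of epithelial cells, 33.9 and 725 CPM.

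Among the members with counts in every group, Il1rl1 and Il17rb carried the largest fitted differences between Hoil1 genotypes in CD45+ cells, and the sequence before each of their annotated starts is shown because RefSeq lists alternative starts for Il1rl1, and because the factors GATA3 and RORα, whose recognition letters were searched for, are needed for ILC2. Mouse Il1rl1 lies on chr1:40429570-40465415, plus strand, and Il17rb on chr14:29996135-30008896, minus strand (GRCm38). The sequences are those of RefSeq on GRCm38.p6, the 250 bases before each start, 5′ to 3′ on the strand of the gene. Capitals mark a match to the letters AGATAA on either strand, where the opposite strand reads TTATCT, which a GATA factor can bind.
Il17rb, chr14:30008897-30009146, minus strand: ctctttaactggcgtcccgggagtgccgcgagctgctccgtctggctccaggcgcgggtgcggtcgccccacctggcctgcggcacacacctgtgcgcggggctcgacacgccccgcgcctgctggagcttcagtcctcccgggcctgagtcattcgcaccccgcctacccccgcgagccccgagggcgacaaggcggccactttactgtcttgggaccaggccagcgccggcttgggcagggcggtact
Il1rl1 first window, chr1:40429320-40429569, plus strand: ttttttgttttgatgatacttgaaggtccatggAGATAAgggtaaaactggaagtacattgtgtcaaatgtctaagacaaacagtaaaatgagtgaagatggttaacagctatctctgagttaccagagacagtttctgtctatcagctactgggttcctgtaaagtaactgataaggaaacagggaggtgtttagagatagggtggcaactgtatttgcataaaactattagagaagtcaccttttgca
Il1rl1 second window, chr1:40439379-40439628, plus strand: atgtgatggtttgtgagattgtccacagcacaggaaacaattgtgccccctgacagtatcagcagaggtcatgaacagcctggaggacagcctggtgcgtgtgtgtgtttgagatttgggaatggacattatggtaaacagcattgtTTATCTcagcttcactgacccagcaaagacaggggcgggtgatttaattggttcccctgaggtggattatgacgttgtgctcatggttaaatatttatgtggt
The match began 217 bases before the start in the first Il1rl1 window and 103 bases before it in the second. The second window also held one match to AGGTCA, or TGACCT on the opposite strand, letters that ROR factors can bind, 185 bases before the start. Of the 8 windows that were listed for 6 of the 9 genes, 2 held the GATA letters and 1 the ROR letters, against 9.99% and 14.02% of all 32851 windows of this length, so these letters are common. A match describes the sequence and is not a measured binding site.

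The sort allows ligand and receptor genes to be compared between fractions, and most receptor genes were higher in CD45+ cells. They were not confined to them, since Crlf2 and Il17ra had counts in all 12 CD45- libraries. Of the ligand genes, Il33 lay mainly in CD45- cells, Tslp was near the limit of detection in both fractions, and Il25 was seen in 1 library. Of the 8 members with enough counts to be tested, 5 receptor genes were higher in CD45+ cells and 2 ligand genes, Il33 and Tslp, were higher in CD45- cells, while Il1rap did not differ detectably. Over all 18778 genes tested, 24.5% were higher in CD45+ and 25.1% were higher in CD45- cells at an adjusted p under 0.05, so a call in this comparison is common. Il33, Il1rl1 and Il7r had counts mostly in 1 fraction, and the filter on low counts itself favors a difference for such genes. Fractions were tested by edgeR's quasi-likelihood method on the 21 libraries, averaged over the 4 genotypes, with Benjamini-Hochberg adjustment over all genes. In sorted bulk RNA, fewer cells of a type and less RNA per cell cannot be told apart, and this holds for every level below.

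**Figure D1:**
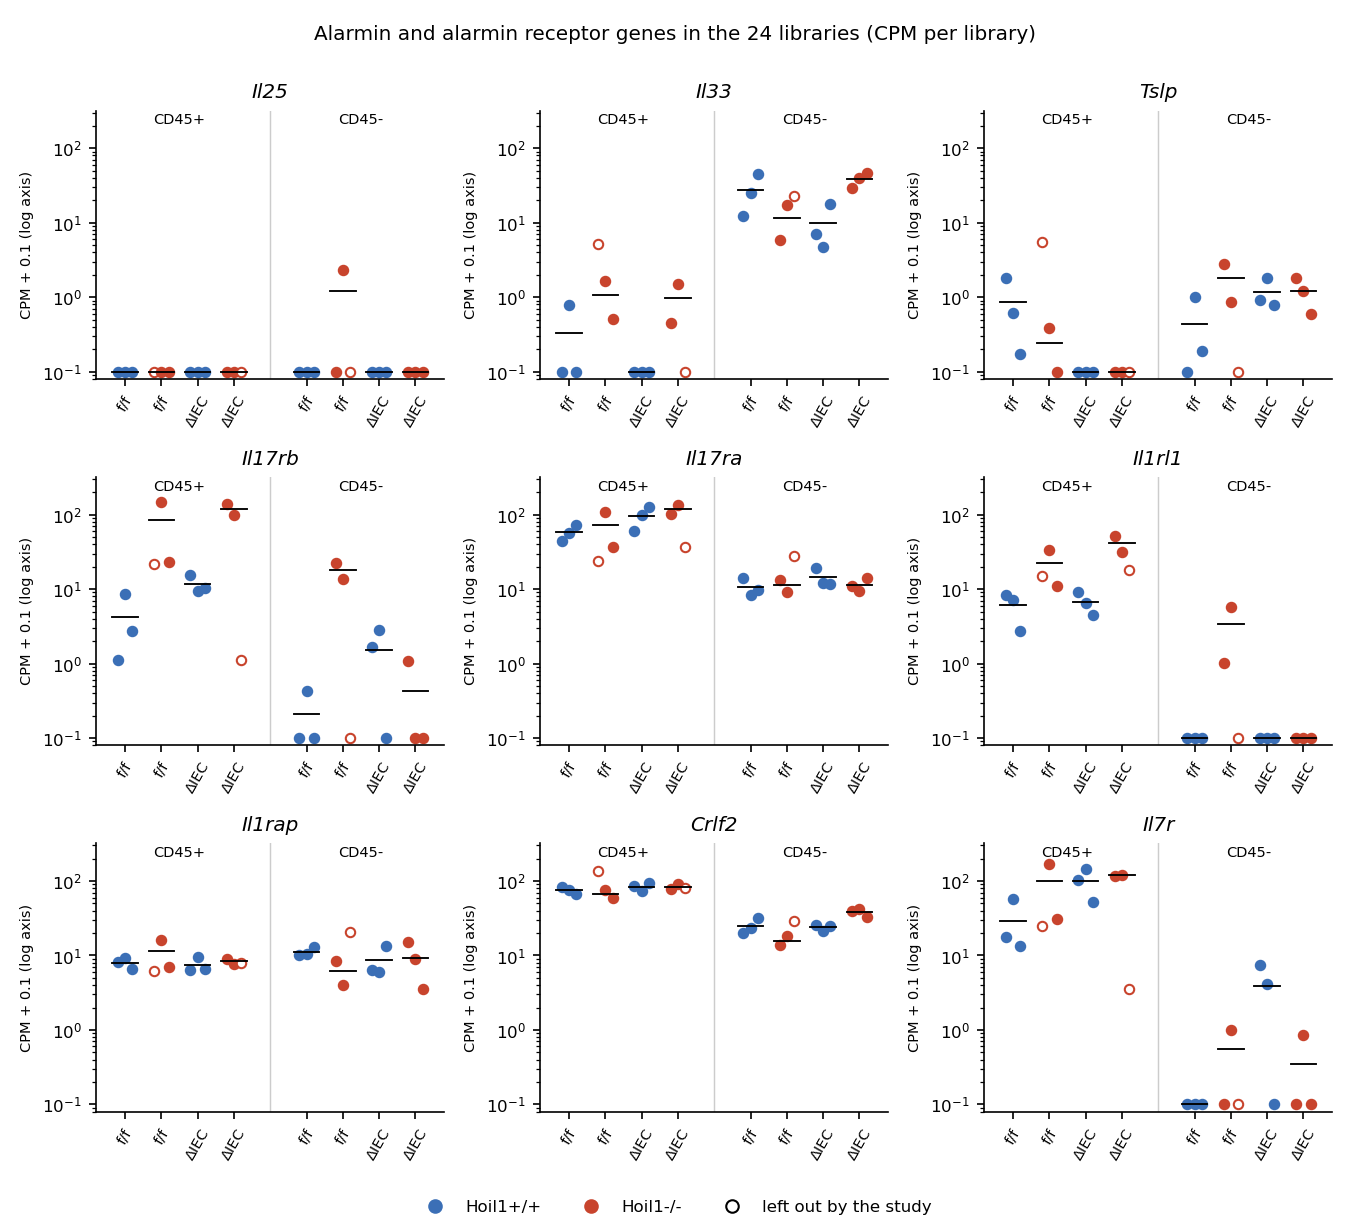
CPM of the 9 genes in each library on a log axis after adding 0.1, by fraction and genotype, with filled points for the 21 libraries tested, open points for the 3 left out and bars for the mean of the filled points. Crlf2 and Il17ra sit higher in CD45+ libraries, Il33 sits higher in CD45- libraries, and Il25 leaves the axis floor in 1 library.

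Among the ligands, Il25 (chr14:54932695-54935837, plus strand) was seen in 1 library of 24. That was CD45- Hoil1-/- f/f replicate 2, with 66 counts or 2.19 CPM (exact 95% interval 1.69 to 2.79, for counting error only). The other 23 libraries had no count, where 3 counts would be 0.498 CPM in the shallowest, and Il25 had too few counts to enter any test. The library with Il25 was also the one with the highest summed level of 12 tuft cell markers, 1435 CPM, and Il25 was at 1.53 CPM per 1000 CPM of those markers. CD45- Hoil1-/- f/f replicate 1, the library next to it with 944 CPM of tuft markers, had no Il25 count.

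Il33 (chr19:29925114-29960718, plus strand) was mainly a transcript of the CD45- fraction. In CD45- libraries it was at 12.2, 25.01 and 44.7 CPM in Hoil1+/+ f/f, at 7.06, 4.58 and 17.9 CPM in Hoil1+/+ ΔIEC, at 5.71, 16.96 and 22.4 CPM in Hoil1-/- f/f, the last of these left out of the tests, and at 28.8, 39.99 and 45.8 CPM in Hoil1-/- ΔIEC mice. In CD45+ libraries it was at 0 CPM in 6 of 12 and at 0.350 to 5.04 CPM in the others. Every CD45- library but one was above every CD45+ library, the exception being Hoil1+/+ ΔIEC replicate 2 at 4.58 CPM beside the 5.04 CPM of CD45+ Hoil1-/- f/f replicate 1, a library left out by the study. The mean was 0.439 CPM in 10 CD45+ and 22.6 CPM in 11 CD45- libraries, a ratio of 51.5 (adjusted p = 1.04e-05, edgeR quasi-likelihood test).

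Tslp was near the limit of detection in both fractions. It had counts in 5 of 12 CD45+ libraries, at 0.0722 to 5.33 CPM, and in 10 of 12 CD45- libraries, at 0.0864 to 2.65 CPM. The ranges overlapped, and the highest value of all was in CD45+ Hoil1-/- f/f replicate 1, left out of the tests. Over the libraries tested the mean was 0.257 CPM in CD45+ and 0.998 CPM in CD45- cells, a ratio of 3.88 (adjusted p = 0.00347, edgeR quasi-likelihood test). This call was lost with the Hoil1+/+ libraries alone, where the adjusted p was 0.0548.

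Of the receptor genes, Crlf2 (chr5:109554709-109558993, minus strand), the TSLP-binding chain, was among the most even. It was at 59.9 to 137 CPM in the 12 CD45+ libraries, with a median of 79.7 CPM, and at 13.6 to 41.8 CPM in the 12 CD45- libraries, with a median of 25.2 CPM. No CD45- library reached the lowest CD45+ library, and the log2 fold change was 1.99 (SE 0.13, adjusted p = 9.71e-09, edgeR quasi-likelihood test). Its partner Il7r (chr15:9505788-9530176, minus strand), which also serves the receptor for IL-7, ranged far more widely, from 3.42 to 170 CPM in CD45+ libraries. In CD45- libraries it had no count in 8 of 12 and at 0.755 to 7.33 CPM in the others, with means of 82.9 CPM in CD45+ and 1.19 CPM in CD45- libraries, a ratio of 69.8 (adjusted p = 1.39e-05, edgeR quasi-likelihood test). The 2 highest CD45- values, 7.33 and 4.08 CPM, were in Hoil1+/+ ΔIEC replicates 1 and 2, where 7 T cell markers summed to 10.6 and 5.07 CPM against 0 to 14.1 CPM over the CD45- libraries. The part of T cells in these values was not tested.

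The receptor chains for IL-25 were also higher in CD45+ cells. Il17ra (chr6:120463247-120487559, plus strand), which serves several IL-17 family cytokines, was at 23.6 to 134 CPM in CD45+ libraries, with a median of 66.2 CPM, and at 8.32 to 27.8 CPM in CD45- libraries, with a median of 11.8 CPM. The fractions overlapped only through 2 left-out libraries, and the log2 fold change was 3.11 (SE 0.24, adjusted p = 3.44e-08, edgeR quasi-likelihood test). Il17rb, the IL-25-specific chain, was at 1.02 to 148 CPM in CD45+ and at 0 to 22.1 CPM in CD45- libraries, so that the fractions overlapped, with a log2 fold change of 4.90 (SE 0.81, adjusted p = 8.75e-05, edgeR quasi-likelihood test). Exons of Il17rb overlap those of Actr8 on the other strand, and since the strand setting of the counting is not given in the sources used here, reads of the overlap cannot be assigned to either with certainty.

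For IL-33, ST2 and its partner chain differed. Il1rl1 was at 2.60 to 51.0 CPM in the CD45+ libraries, with counts in all 12, and in CD45- libraries it had counts in 2 of 12, at 0.910 and 5.68 CPM, both Hoil1-/- f/f. Means of 16.4 and 0.599 CPM gave a ratio of 27.5 (adjusted p = 9.81e-07, edgeR quasi-likelihood test). Il1rap (chr16:26581704-26730117, plus strand), which is shared with the receptor for IL-1, was at 6.18 to 16.3 CPM in CD45+ and 3.48 to 20.6 CPM in CD45- libraries. The ranges overlapped widely, and the log2 fold change was 0.33, with an interval of 2 SE on either side from -0.17 to 0.83 (adjusted p = 0.315, edgeR quasi-likelihood test). Its exons overlap the antisense gene Gm20319, with the same limit on strand.

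To compare levels between genes, CPM were divided by the exon length in kilobases. In CD45+ cells Crlf2 came first, at 55.8 ± 12.96 CPM per kb (SD, n = 12). Il7r followed at 15.3 ± 12.3, Il17rb at 10.8 ± 14.9 and Il17ra at 8.65 ± 4.32 CPM per kb (SD, n = 12), and the gaps among these 3 were within the spread between libraries. The place of Il17rb depended on genotype, at 2.13 CPM per kb in the 6 Hoil1+/+ libraries, below Il17ra at 8.86, and at 19.4 CPM per kb in the 6 Hoil1-/- libraries, above Il7r at 16.7. Il1rl1, at 2.38 ± 2.14 CPM per kb, was below Il17ra by more than either SD, and Il1rap, Tslp, Il33 and Il25 followed at 0.731, 0.495, 0.272 and 0 CPM per kb within their spread. In CD45- cells Crlf2 was again first, at 17.9 ± 5.77 CPM per kb, and Il33 second, at 7.83 ± 5.10 CPM per kb (SD, n = 12), each apart from its next neighbor by more than the larger SD. The other 7 genes were between 0.0796 CPM per kb for Il1rl1 and 1.53 CPM per kb for Il17ra, with no gap among them beyond the larger SD.

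Genes of the pathways these receptors feed were read from 2 lists. Over all genes tested, 24.5% were higher in CD45+ and 25.1% in CD45- cells, the background for both lists. Of 15 signaling genes, 10 were higher in CD45+ cells, 1 was higher in CD45- cells and 4, namely Traf3ip2, Irak3, Map3k7 and Stat3, did not pass the edgeR test, with a median log2 fold change of 0.87 against 0.03 over all genes. Stat5a, which transmits signals of the TSLP and IL-7 receptors, was at 34.2 CPM in CD45+ and 8.02 CPM in CD45- cells (log2 fold change 2.35, SE 0.26, adjusted p = 1.79e-06). Myd88, the adaptor below ST2, had a log2 fold change of 1.20 and Irak4, a kinase it recruits, one of 0.87. Traf6, a ubiquitin ligase shared by the IL-25 and IL-33 pathways, was at 1.13, and Jak1 and Jak2, kinases of the TSLP receptor, were at 0.75 and 1.06 on the same scale. Tab1, of the TAK1 complex, was the one lower in CD45+ cells, with a log2 fold change of -0.62 (SE 0.20, adjusted p = 0.0177), whereas its relative Tab2 was higher (1.58, adjusted p = 2.29e-07).

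Of 18 genes for receptor partners and competing ligands, 10 were higher in CD45+ cells, 4 were higher in CD45- cells and 4, Il17re, Il7, Il17c and Il18, did not pass the edgeR test. The shares over all genes were again 24.5% and 25.1%. Il17rc, which pairs with IL-17RA to read IL-17A and IL-17F, was at 2.09 CPM in CD45+ and 113 CPM in CD45- cells (log2 fold change -5.54, SE 0.78, adjusted p = 1.80e-05, edgeR quasi-likelihood test). Il1r1, the IL-1 receptor chain that pairs with IL-1RAP, was at 10.8 CPM in CD45+ and 78.7 CPM in CD45- cells (log2 fold change -2.47, SE 0.31, adjusted p = 5.06e-06, edgeR quasi-likelihood test). Il17rd and Sigirr, an inhibitory member of the IL-1 receptor family, were the other two, with log2 fold changes of -4.52 and -0.84. In the opposite direction, the IL-18 receptor chain gene Il18r1 had a log2 fold change of 3.93, Il1rl2, which pairs with IL-1RAP to read IL-36, one of 2.82, and the common γ chain gene Il2rg, the partner of IL-7Rα for IL-7, one of 2.79. Of the chains that share IL-17RA or IL-1RAP with the alarmin receptors, Il17rc and Il1r1 were thus higher in CD45- cells. Il1rl2 was higher in CD45+ cells, as was Il1r2, another IL-1 receptor gene, and Il17re did not pass.

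The Hoil1 genotype is the comparison the series was made for. In CD45+ cells Il17rb and Il1rl1, the chains that bind IL-25 and IL-33, had the largest fold changes among the members with counts in every group, but no member passed the adjusted threshold in any of the 5 genotype contrasts with the quasi-likelihood test of edgeR. The study, with its own edgeR analysis and threshold, lists Il17rb among genes differentially expressed between Hoil1 genotypes in CD45+ cells. With Hoil1 averaged over both Il4ra genotypes, 0.00587% of the 17029 genes tested were called, which is 1 gene, Rbck1. Within f/f and within ΔIEC 0% were called, for the Il4ra effect 0.00587% and for the interaction of Hoil1 and Il4ra 0%. In the averaged contrast 4 of the members tested had an unadjusted p under 0.05, all higher in Hoil1-/- cells, in a table where 996 of the 17029 genes did. Il33, 1 of these 4, passed the filter on low counts only through Hoil1-/- libraries, so its p is not used. DESeq2 and the likelihood ratio test of edgeR each called 2 members, Il17rb and Il1rl1, and called 126 and 103 genes in all.

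Il17rb was at 1.03, 8.50 and 2.67 CPM in Hoil1+/+ f/f and at 15.5, 9.36 and 10.4 CPM in Hoil1+/+ ΔIEC CD45+ libraries. In Hoil1-/- f/f libraries it was at 148 and 22.9 CPM, and in Hoil1-/- ΔIEC libraries at 141 and 97.9 CPM, with 21.8 CPM in the left-out f/f and 1.02 CPM in the left-out ΔIEC library. All 4 Hoil1-/- libraries tested were above all 6 Hoil1+/+ libraries, and with the 2 left-out libraries 5 of 6 were, the left-out ΔIEC library being the lowest of all 12. The log2 fold change was 3.79 (SE 0.51, unadjusted p = 2.6e-05, adjusted p = 0.0968, edgeR quasi-likelihood test), the third smallest p of the table. It was 4.25 (SE 0.74, adjusted p = 0.228) in f/f and 3.34 (SE 0.71, adjusted p = 0.584) in ΔIEC mice, and the difference between these, -0.91 (SE 0.99, adjusted p = 0.917), was within its error. Without Hoil1-/- f/f replicate 3 the adjusted p was 0.0174, and with no filter on low counts it was 0.0332, so the call turned on this library and on the filter and test.

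Il1rl1 was at 8.32, 6.95 and 2.60 CPM in Hoil1+/+ f/f and at 8.98, 6.34 and 4.40 CPM in Hoil1+/+ ΔIEC CD45+ libraries. It was at 33.3 and 10.95 CPM in Hoil1-/- f/f and at 51.0 and 31.6 CPM in Hoil1-/- ΔIEC libraries, and at 14.7 and 18.01 CPM in the left-out f/f and ΔIEC libraries. All 6 Hoil1-/- libraries, the left-out ones included, were above all 6 Hoil1+/+ libraries, which 15 genes or 0.0881% of those tested did in this direction. Over the 10 libraries tested, Il17rb and Il1rl1 were 2 of 72 genes, or 0.423%, without overlap in this direction. The log2 fold change of Il1rl1 was 2.17 (SE 0.35, unadjusted p = 0.000113, adjusted p = 0.250, edgeR quasi-likelihood test). It was 1.68 (SE 0.49) in f/f and 2.67 (SE 0.50) in ΔIEC mice, and the difference between these was 0.99 (SE 0.71, adjusted p = 0.809).

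**Figure D2:**
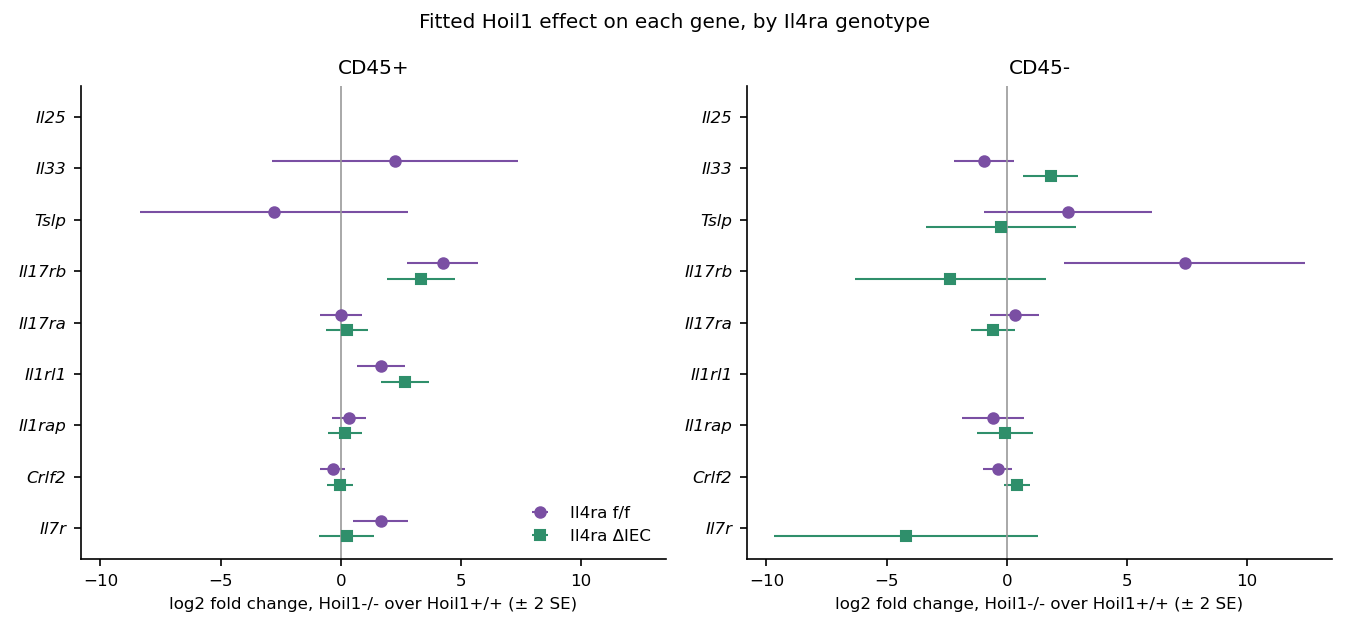
Log2 fold change of Hoil1-/- over Hoil1+/+ in f/f and ΔIEC mice for each fraction, with bars of 2 SE either side, without the genes for which a group had no counts. In CD45+ cells the points of Il17rb (4.25 and 3.34) and Il1rl1 (1.68 and 2.67) lie above 0 in both, and those of Il17ra, Il1rap and Crlf2 lie near 0.

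Levels of ILC2 markers are given beside these receptor genes, since ILC2 carry both receptors. The summed level of 12 ILC2 markers, none of them a member, was 89.8 to 529 CPM in the 6 Hoil1+/+ libraries, with 8 to 12 of the 12 markers seen, and Il5 was at 0 in 5 of these libraries. It was 201 and 960 CPM in Hoil1-/- f/f and 740 and 862 CPM in Hoil1-/- ΔIEC libraries, with all 12 seen, and 175 and 128 CPM in the left-out libraries, so that the genotypes overlapped. For each 1000 CPM of these markers, Il17rb ranged from 7.54 to 50.7 CPM in Hoil1+/+ libraries and from 114 to 163 CPM in the 4 tested Hoil1-/- libraries. These ranges did not overlap, and the left-out libraries were at 7.98 CPM in ΔIEC and 125 CPM in f/f. Whether the 12 markers measure ILC2 alone was not tested, nor how many other genes separate in this way. Il1rl1 per 1000 CPM of the markers ranged from 11.99 to 61.2 CPM in Hoil1+/+ libraries and from 34.6 to 59.2 CPM in the tested Hoil1-/- libraries, and these overlapped, while the left-out libraries were higher, at 84.1 and 141 CPM. The marker list was chosen with results of these libraries known, Klrg1, Il5 and Nmur1 in it are genes the study reports on in these libraries, and the part of ILC2 number in either gene was not tested.

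**Figure D3:**
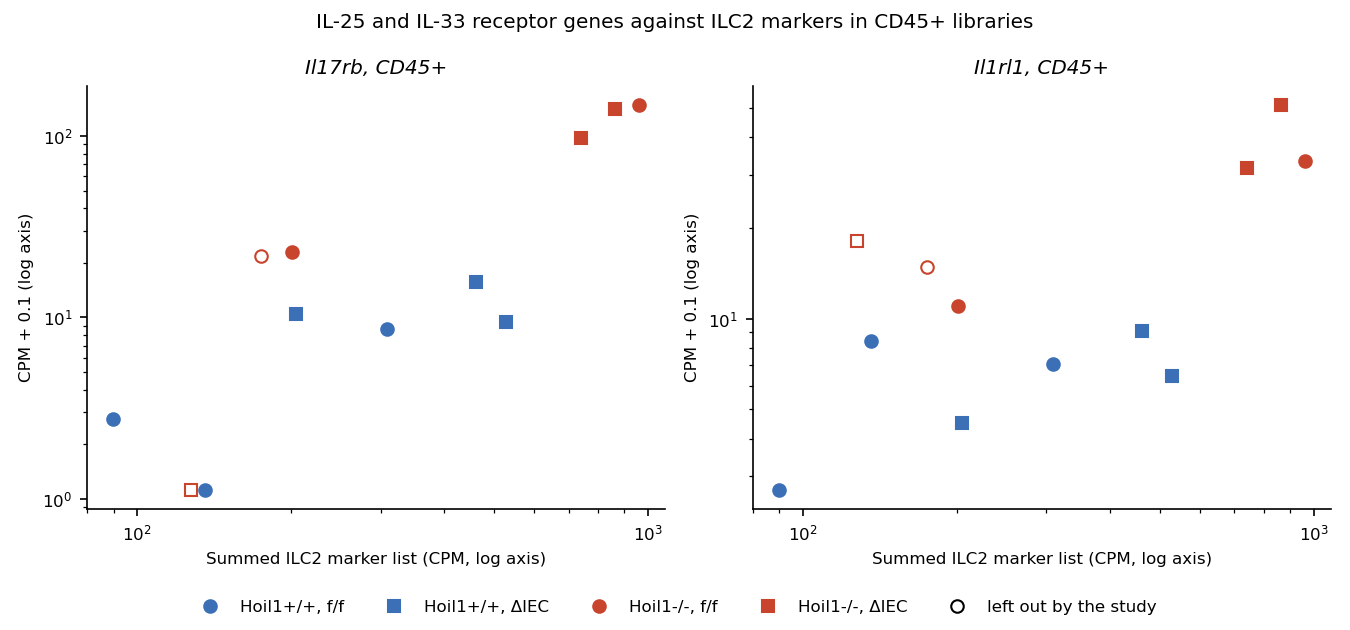
CPM of Il17rb and of Il1rl1 against the summed CPM of 12 ILC2 markers in the 12 CD45+ libraries, colored by Hoil1 genotype, with open points for left-out libraries. The 4 Hoil1-/- libraries tested lie above the Hoil1+/+ libraries for Il17rb, at 114 to 163 CPM per 1000 CPM of markers against 7.54 to 50.7.

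The partner chains had estimates nearer to 0. Il17ra was at 44.4, 57.4 and 71.6 CPM in Hoil1+/+ f/f, at 60.8, 99.1 and 127 CPM in Hoil1+/+ ΔIEC, at 107 and 37.2 CPM in Hoil1-/- f/f and at 101 and 134 CPM in Hoil1-/- ΔIEC libraries. The genotypes overlapped, and the log2 fold change was 0.13, with an interval of 2 SE on either side from -0.49 to 0.76 (adjusted p = 1.00, edgeR quasi-likelihood test). Il1rap had a log2 fold change of 0.25 (interval -0.25 to 0.75) and Crlf2 one of -0.18 (interval -0.55 to 0.19). For these 3 genes a difference as large as that of Il17rb lies outside the interval. The sign of the Il17ra and Crlf2 values was not stable, since with all 12 libraries they were -0.19 and 0.10.

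Il7r was at 17.4, 56.6 and 13.5 CPM in Hoil1+/+ f/f, at 104, 145 and 53.0 CPM in Hoil1+/+ ΔIEC, at 170 and 31.0 CPM in Hoil1-/- f/f and at 118 and 119 CPM in Hoil1-/- ΔIEC libraries. The left-out f/f and ΔIEC libraries were at 24.7 and 3.42 CPM. The ranges overlapped, and the log2 fold change was 0.95 (SE 0.40, unadjusted p = 0.0399, adjusted p = 0.783, edgeR quasi-likelihood test). It was 0.32 without Hoil1-/- f/f replicate 2 and 0.48 with all 12 libraries. Il33, a low transcript in this fraction, averaged 0.928 CPM in Hoil1-/- and 0.113 CPM in Hoil1+/+ libraries. It had counts in 1 of 6 Hoil1+/+ libraries. The filter on low counts was passed only through Hoil1-/- libraries, so no test of Il33 is given. In the left-out f/f library, where Il33 was at 5.04 CPM, 7 fibroblast markers summed to 241 CPM against 14.2 to 184 CPM in the 10 libraries tested. Il25 had no count in any CD45+ library.

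For the epithelial deletion of Il4ra no member was called in CD45+ cells. Tslp was at 1.70, 0.508 and 0.0722 CPM in Hoil1+/+ f/f and at 0.287 and 0 CPM in Hoil1-/- f/f libraries, with 5.33 CPM in the left-out one, and it had no count in any of the 6 ΔIEC libraries. It passed the filter on low counts only through f/f libraries, so no test of it is given. At an unadjusted p under 0.05 there were 1805 genes in this contrast with edgeR's quasi-likelihood test. Il1rap, at a mean of 7.75 CPM in ΔIEC and 9.35 CPM in f/f libraries, had a log2 fold change of -0.62 (SE 0.25, adjusted p = 0.449). The interaction of Hoil1 and Il4ra gave no member with an unadjusted p under 0.05, beside 1193 genes.

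In CD45- cells the 2 Hoil1-/- f/f libraries tested stood apart through genes of tuft cells, and the alarmin receptor genes Il17rb and Il1rl1 were seen in the same libraries. No member passed the adjusted threshold with the quasi-likelihood test of edgeR, which called 0.0182% of 16453 genes for Hoil1 averaged over Il4ra, 0.0365% in f/f, 0.00608% in ΔIEC, 0% for Il4ra and 0% for the interaction. At an unadjusted p under 0.05 there were 0 of the members for the averaged contrast, 2 in f/f, 1 in ΔIEC, 1 for Il4ra and 3 for the interaction, beside 868, 2161, 1261, 971 and 3409 genes. DESeq2 and the likelihood ratio test called 1 member each in f/f (Il17rb and Il1rl1), with 613 and 350 genes in all. For the interaction they called 2 and 1 (Il17rb and Il33, and Il33), with 1466 and 1223 genes in all. The Il1rl1 call is not used, since that gene passed the filter on low counts only through Hoil1-/- f/f libraries. The counts at an unadjusted p make no such exception.

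Il17rb in CD45- libraries was at 22.1 and 13.6 CPM in Hoil1-/- f/f mice, from 267 and 409 counts. It was at 0, 0.324 and 0 CPM in Hoil1+/+ f/f, at 1.56, 2.72 and 0 CPM in Hoil1+/+ ΔIEC and at 0.968, 0 and 0 CPM in Hoil1-/- ΔIEC libraries, and at 0 in the left-out f/f library. The 2 libraries were thus the only ones above 2.72 CPM, and within f/f the log2 fold change was 7.40 (SE 2.51, unadjusted p = 0.0126, adjusted p = 0.336, edgeR quasi-likelihood test). Il1rl1 was at 0.910 and 5.68 CPM in the same 2 libraries, from 11 and 171 counts, and at 0 in the other 10. It passed the filter on low counts only through these 2 libraries, so no test of it is used in this fraction. Both members were without overlap between the tested f/f libraries, as were 1648 genes or 10% of those tested in this direction.

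The summed level of the 12 tuft cell markers was 944 and 1435 CPM in these 2 libraries, with 11 and 12 markers seen, against 64.7 to 234 CPM in the other 10, with 9 to 11 seen. For each 1000 CPM of these markers Il17rb was at 23.4 and 9.46 CPM in the 2 libraries, and at 0, 1.93 and 0 CPM in the Hoil1+/+ f/f libraries, below both. In Hoil1+/+ ΔIEC replicates 1 and 2 it was at 19.5 and 42.1 CPM, within and above the values of the 2 libraries. Pan-epithelial markers were also highest in the 2 libraries, at 16429 and 14540 CPM against 1906 to 12970 CPM in the other libraries. So was Ptprc, at 10.7 and 16.3 CPM against 0 to 4.57 CPM. Leukocyte marker lists did not all run with Ptprc. B cell markers were highest in the 2 libraries, as were mast cell markers, at 72.3 and 68.0 CPM against at most 49.0 CPM. Eosinophil markers were at 41.2 and 73.6 CPM against at most 5.14 CPM, with 1 and 2 of 5 markers seen. That list holds Siglecf, which the study says tuft cells also express, so its sum is not a measure of eosinophils alone. The 7 T cell markers summed to 2.48 and 2.62 CPM there, and T cell, myeloid and ILC2 markers were not highest in either. Plasma cell markers were highest in replicate 2 only. The part of tuft cell number, of epithelial share or of CD45+ cells in these values was not tested.

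**Figure D4:**
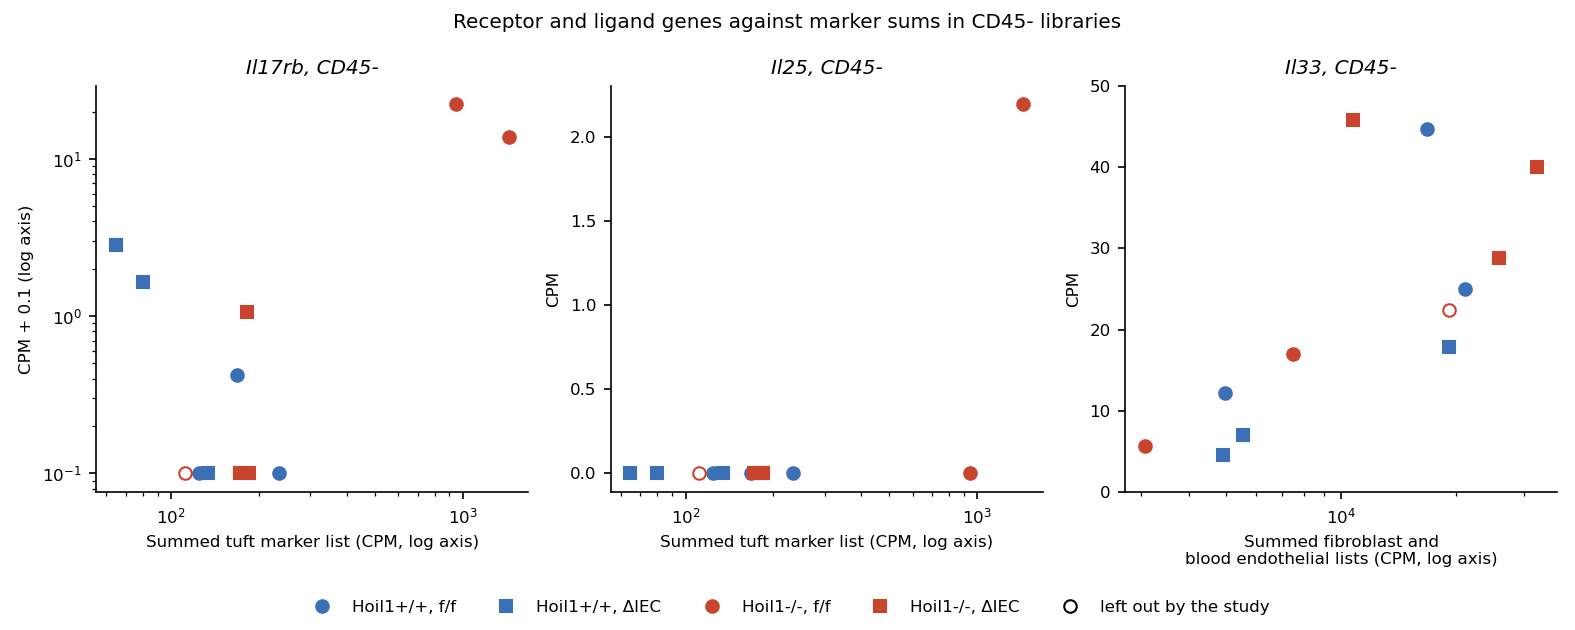
CPM in the 12 CD45- libraries of Il17rb and Il25 against the sum of 12 tuft cell markers and of Il33 against the sum of the fibroblast and blood endothelial markers, with open points for the left-out library. The 2 Hoil1-/- f/f libraries with 944 and 1435 CPM of tuft markers hold Il17rb at 22.1 and 13.6 CPM, and only the second holds Il25.

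Il33, given above for every library, showed opposite signs of the Hoil1 difference in the 2 Il4ra genotypes. In ΔIEC mice all 3 Hoil1-/- libraries (28.8 to 45.8 CPM) were above all 3 Hoil1+/+ libraries (4.58 to 17.9 CPM), with a log2 fold change of 1.82 (SE 0.56, unadjusted p = 0.00802, adjusted p = 0.603, edgeR quasi-likelihood test). In f/f mice the libraries overlapped, with a log2 fold change of -0.95 (SE 0.63). The test of the difference gave 2.77 (SE 0.85, unadjusted p = 0.0077, adjusted p = 0.147), which did not pass. Without Hoil1+/+ ΔIEC replicate 3 the edgeR interaction test called Il33 and Il17rb, along with 1199 genes in all.

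Levels of stromal markers are given beside those of Il33. Fibroblast markers summed to 2963 to 10821 CPM and blood endothelial markers to 7808 to 21743 CPM in Hoil1-/- ΔIEC libraries, against 711 to 3089 CPM and 4170 to 16052 CPM in Hoil1+/+ ΔIEC libraries, with all 7 and all 8 markers seen in each. Per 1000 CPM of both lists, Il33 was at 1.11, 1.23 and 4.25 CPM in Hoil1-/- ΔIEC and at 1.27, 0.932 and 0.935 CPM in Hoil1+/+ ΔIEC libraries, and these overlapped. The library with the most Il33, Hoil1-/- ΔIEC replicate 3, had the lowest sums of both lists in its group. In f/f mice, fibroblast markers summed to 443 to 2532 CPM in the tested Hoil1-/- and 618 to 6137 CPM in the Hoil1+/+ libraries. Blood endothelial markers summed to 2626 to 4975 CPM and 4368 to 17163 CPM. Per 1000 CPM of both lists, Il33 was at 1.86 and 2.26 CPM against 2.44, 1.19 and 2.67 CPM. Each of these overlapped. The left-out f/f library held 8960 and 10228 CPM of the lists, and Il33 at 1.17 CPM per 1000 CPM. Smooth muscle and pericyte markers summed to 2554 to 4914 CPM in Hoil1-/- ΔIEC and to 1217 to 2352 CPM in Hoil1+/+ ΔIEC libraries. In f/f mice they summed to 437 to 1837 CPM in Hoil1-/- and to 3178 to 5994 CPM in Hoil1+/+ libraries. The genotypes did not overlap for this list in either. The part of stromal content in the Il33 difference was not tested.

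Crlf2 in CD45- cells had the same arrangement at a smaller size. It was at 19.6, 23.4 and 32.2 CPM in Hoil1+/+ f/f and at 13.6 and 17.9 CPM in Hoil1-/- f/f libraries, with 28.6 CPM in the left-out one, and at 25.8, 21.5 and 24.7 CPM in Hoil1+/+ ΔIEC and 40.1, 41.8 and 32.7 CPM in Hoil1-/- ΔIEC libraries. Over the tested libraries Hoil1-/- values were all below Hoil1+/+ values in f/f and all above them in ΔIEC, as for 409 genes or 2.49% of those tested, while the left-out f/f library fell within the Hoil1+/+ range. In ΔIEC alone Il33 and Crlf2 were 2 of 1206 genes, or 7.33%, with all Hoil1-/- libraries above. The log2 fold changes were -0.38 (SE 0.31) in f/f and 0.44 (SE 0.27) in ΔIEC mice, and their difference was 0.82 (SE 0.41, adjusted p = 0.280, edgeR quasi-likelihood test). For the Il4ra effect the log2 fold change of Crlf2 was 0.63 (SE 0.21, unadjusted p = 0.0109, adjusted p = 0.808).

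The remaining members gave small or uncertain values in CD45- cells. With Hoil1 averaged over Il4ra, the log2 fold change was -0.13 (SE 0.34) for Il17ra, -0.33 (SE 0.43) for Il1rap, 0.03 (SE 0.21) for Crlf2 and 0.44 (SE 0.41) for Il33. Tslp, at 0 to 2.65 CPM, had a log2 fold change of 1.15 with an SE of 1.16, so neither a several-fold rise nor no difference lies outside its interval of -1.17 to 3.48. Il7r was at 7.33, 4.08 and 0 CPM in Hoil1+/+ ΔIEC and at 0 to 0.896 CPM in the other 9 CD45- libraries, and the interaction had an unadjusted p of 0.0372 and an adjusted p of 0.217 with the edgeR quasi-likelihood test.

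The 2 pathway lists held no called gene in any of the 10 genotype contrasts with the quasi-likelihood test of edgeR. In CD45+ cells with Hoil1 averaged over Il4ra, 0 of 15 signaling genes and 1 of 17 tested partner genes had an unadjusted p under 0.05, with median log2 fold changes of 0.14 and 0.26 against -0.05 over all genes. In CD45- cells the counts were 0 of 15 and 0 of 16, with medians of 0.01 and -0.34 against -0.08. Other contrasts had more, at most 2 signaling genes in one direction and 1 in the other, and for partner genes 4 of 17 higher in Hoil1-/- f/f CD45+ cells and 3 higher and 3 lower of 16 for the interaction in CD45- cells.

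Genes whose level across libraries ran most like that of a member were listed as a description, by Pearson's r of log2(CPM + 0.5) over the 12 libraries of the fraction where the member's mean CPM over those libraries was higher. In CD45+ libraries Il1rl1 ran with Klrg1 (r = 0.912), an inhibitory receptor carried by ILC2, with Calca (0.907), which encodes the neuropeptide CGRP, and with Pcsk1 (0.881), a prohormone convertase. Il17rb ran with Cntn1 (0.962), Stab2 (0.944) and Deptor (0.944), and Il7r with Slc25a37 (0.982), Ppp1r12a (0.976) and Pik3r1 (0.972). Il17ra ran with Gm20186 (0.961), Sik1 (0.960) and Ahr (0.959), the aryl hydrocarbon receptor, and Crlf2 with Paox (0.949), Rbfa (0.942) and Lamp1 (0.932). In CD45- libraries Il33 ran with Efemp2 (0.968), which encodes an extracellular matrix protein, Fkbp1a (0.968) and Flot2 (0.963), while Il1rap ran with Stard13 (0.938), Nck2 (0.934) and Zcchc2 (0.930), and Tslp with Ifi35 (0.891), Apol8 (0.863) and Abca7 (0.854). These were the highest r among all genes that passed the filter, the libraries share depth, genotype and sort, and the values of Tslp rest on few counts. No value is given for Il25, which was seen in 1 library.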

How the data were processed

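RNA was measured by sequencing of poly-A selected, strand-selected libraries made with 16 cycles of PCR and no molecular identifiers. The authors trimmed reads with cutadapt (quality 20, minimum 40 bases), aligned them to mm10 with STAR and deposited whole-number counts per ENSEMBL gene from featureCounts, without normalization. Versions and the strand setting of the counting are not given in the sources used here.

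From the deposited counts, CPM were computed as counts divided by the total on genes, and 38872 of 39056 IDs were named with GENCODE M21 on GRCm38. Tests used edgeR 4.0.16 in R 4.3.3 (quasi-likelihood test, TMM factors, filter with minimum count 10 and minimum total 15, two-sided, Benjamini-Hochberg adjustment over all genes, threshold 0.05), on 10 CD45+ libraries, on 11 CD45- libraries, and on all 21 for the fractions. The contrasts were Hoil1 averaged over Il4ra and within f/f and ΔIEC, Il4ra averaged over Hoil1, and the interaction. A log2 fold change and SE are given only where every group in the contrast had counts, and otherwise means and their ratio are given with the p of the test. Intervals and the floor of 3 counts cover counting error only.

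Groups came from the labels and replicates were numbered in accession order. The labels do not tie CD45+ and CD45- libraries of 1 mouse and do not say that libraries came from separate mice, so p-values measure the spread between these libraries. Replicates within a group differed by far more than counting noise. The genes named are the 9 members, the sort and genotype checks, pathway genes past the threshold, single markers and the 3 genes most like each member. Members, lists and markers were chosen with earlier results of these data known, and Il4ra and the genes at 0 among the markers were named after their values were seen. Alternatives were all libraries, RLE size factors, no filter, DESeq2 1.42.0, the likelihood ratio test, leaving out each library, total counts without TMM, 1 Hoil1 genotype at a time, removal of immunoglobulin genes and a pan-epithelial covariate. The tests were tried on simulated counts with known changes. Promoter windows were read from RefSeq tables of GRCm38.p6. Python 3.11.15, pandas 2.3.3, scipy 1.17.1 and matplotlib 3.10.9 were used for the rest.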

Additional observations from a re-analysis of the deposited data

Results flagged for a closer look

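Several members were higher in a library that the study left out than in any Hoil1+/+ library of the same fraction. In CD45+ Hoil1-/- f/f replicate 1, Il33 was at 5.04 CPM (highest Hoil1+/+ library 0.677), Tslp at 5.33 CPM (1.70), Il17rb at 21.8 CPM (15.5), Il1rl1 at 14.7 CPM (8.98) and Crlf2 at 137 CPM (92.7). The same library held 241 CPM of fibroblast markers. In CD45+ Hoil1-/- ΔIEC replicate 3, Il1rl1 was at 18.01 CPM against 8.98 CPM, while Il17rb was at 1.02 CPM. In CD45- Hoil1-/- f/f replicate 3, Il17ra was at 27.8 CPM (highest Hoil1+/+ library 19.3) and Il1rap at 20.6 CPM (13.3). Each is the value of 1 library. The share of all genes that did the same in these libraries was not counted, so this is no result about the members.

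The Hoil1 difference of Crlf2 in CD45- cells had opposite signs in f/f and ΔIEC mice, with no overlap between the tested libraries in either. The same arrangement was seen for 409 genes, or 2.49% of those tested. The left-out Hoil1-/- f/f library, at 28.6 CPM, fell within the Hoil1+/+ f/f range of 19.6 to 32.2 CPM. The interaction was 0.82 on the log2 scale (SE 0.41, adjusted p = 0.280, edgeR quasi-likelihood test) and did not pass the threshold.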

How the results depend on the processing

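The count of members called in the fraction comparison was 7 of 8 under all libraries, RLE, no filter, DESeq2, the likelihood ratio test, total counts, Hoil1-/- libraries alone and each library left out, and 6 with Hoil1+/+ libraries alone, where Tslp was lost. For Hoil1 averaged over Il4ra in CD45+ cells it was 0 with the quasi-likelihood test and 1 (Il17rb, adjusted p = 0.0332) with no filter, 2 with DESeq2, 2 with the likelihood ratio test and 0 to 1 with a library left out. DESeq2 and the likelihood ratio test gave 1 and 1 in f/f and 2 and 2 in ΔIEC mice. In CD45- cells they gave 1 and 1 in f/f and 2 and 1 for the interaction, where leaving out a library gave 0 to 2. The f/f counts there include Il1rl1, which passed the filter on low counts only through Hoil1-/- f/f libraries, so that call is not used. Over all genes, DESeq2 and the likelihood ratio test called 51 to 1466 genes in the genotype contrasts, where the quasi-likelihood test called 0 to 6. The immunoglobulin and epithelial settings changed no count of members called.

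For Hoil1 in CD45+ cells, the log2 fold change of Il17rb was 3.06 to 4.15 with a library left out (adjusted p 0.0174 to 0.447) and that of Il1rl1 was 1.85 to 2.40 (adjusted p 0.0891 to 0.795). With all libraries they were 3.31 and 1.99, with adjusted p of 1.00 and 0.283. Signs turned with all libraries for Il17ra (-0.19) and Crlf2 (0.10) in CD45+ and for Il17ra (0.12) and Il1rap (0.043) in CD45- cells. With a library left out, they turned within ranges of -0.16 to 0.34 for Il17ra in CD45+, and of -0.29 to 0.059 for Il17ra, -0.075 to 0.12 for Crlf2 and -0.056 to 0.72 for Il33 in CD45- cells, none of them called. The causes were not tested. Fold changes were left out of this comparison where a group had no counts. No paired analysis was made, since the labels carry no replicate or mouse numbers and ages, which match in part across the fractions, do not name a mouse. Il25, Tslp, and in CD45- cells Il1rl1 and Il7r, were at 0 or few counts in many libraries.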
